A study of Mus musculus with 28 samples.

Results

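The 10 genes described here encode proteins through which astrocytes are known to build and remove synapses: the thrombospondins Thbs1, Thbs2 and Thbs4, the matricellular proteins Sparc and Sparcl1, the glypicans Gpc4 and Gpc6, the secreted bone morphogenetic protein (BMP) binding protein Chrdl1, and the phagocytic receptors Megf10 and Mertk. They were chosen by function, from their gene symbols, out of 53342 Ensembl gene identifiers in the count tables, and all 10 were found. The choice was made with earlier results of these data known. Astrocytes secrete thrombospondins, which promote the formation of synapses with normal structure, and Sparcl1 (hevin), which bridges pre- and postsynaptic adhesion proteins, while Sparc opposes the action of Sparcl1. Gpc4 and Gpc6 are heparan sulfate proteoglycans that recruit AMPA-type glutamate receptors to young synapses, and Chrdl1 drives the switch to mature AMPA receptor subunits. Megf10 and Mertk sit on the astrocyte surface and mediate the engulfment of synaptic material, Mertk by way of the bridging ligands Gas6 and Pros1.

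Cortical RNA was sequenced from conditional knockout (cKO) mice, in which the mGFAP-Cre driver was combined with loxP-flanked alleles (loxP/loxP), and from control (Ctrl) littermates of the same sex, whose genotype is given as loxP/loxP or loxP/+ without the driver. All strains were kept on the C57BL/6J background. For bulk RNA-Seq, flash-frozen cortex was taken at postnatal day 17 (P17) or P24 from 4 mice of each genotype and age, each giving 1 library. Translating ribosome affinity purification (TRAP-Seq) at P24 used 3 cKO and 3 Ctrl mice, and gave for each mouse an Input library, from the cleared lysate of both cortical hemispheres, and an IP library, from ribosomes pulled down with anti-GFP antibodies through an EGFP/Rpl10a fusion that the mGFAP-Cre driver switches on. The tag marks whichever cells expressed the driver, so the IP of Ctrl mice also requires it.

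The 16 bulk libraries held 8855488 to 14575302 counts and the 12 TRAP-Seq libraries 18433087 to 27242445. Levels are given in CPM, the counts of a gene scaled to a common library total with edgeR's TMM factors. A floor of 3 counts, which covers counting error only, corresponded to 0.202 to 0.340 CPM in the bulk tables and 0.106 to 0.167 CPM in the TRAP-Seq table. The 7 astrocyte markers Aldh1l1, Aqp4, Slc1a2, Slc1a3, Gja1, Aldoc and Gfap summed to between 9800 and 12903 CPM in the IP libraries and to between 930.1 and 1931 CPM in the Input libraries, and none was at 0. In the TRAP-Seq Input, the astrocyte sum was below that of bulk cortex at the same age (3682 to 4321 CPM), and endothelial markers reached at most 5.6 CPM against at least 74.4 CPM in P24 bulk. Levels in Input and in bulk cortex were therefore not compared. The sex of each mouse is not given in the sources used here. Xist reached over 1000 counts in 2 of 4 libraries of each genotype at P24, in 1 of 4 of each genotype at P17, and in none of the TRAP-Seq libraries.

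The 10 genes differed widely in abundance. Per kilobase of exon, in P24 Ctrl cortex, Sparcl1 was at 353 ± 9.71 CPM per kb (SD, n = 4), Sparc at 56.2 ± 2.89 and Mertk at 14.6 ± 0.693. These were the top 3 in each of the 4 bulk groups, with no overlap between neighbours in the order. Below them, in P24 Ctrl cortex, Gpc6 and Gpc4 (4.26 ± 0.737 and 3.77 ± 0.300 CPM per kb) overlapped each other, as did Megf10 and Thbs4 (2.85 ± 0.205 and 2.53 ± 0.627) and Chrdl1 and Thbs2 (1.47 ± 0.136 and 1.26 ± 0.194). Thbs1 was lowest, at 0.603 ± 0.0622 CPM per kb. In P24 cKO cortex the order from the fourth place was Gpc6, Megf10, Gpc4 and Chrdl1 (4.06, 3.96, 3.83 and 3.72 CPM per kb), each overlapping the next, so that Chrdl1 lay among genes that it was below in Ctrl mice. In the IP of Ctrl mice, Mertk (14.9 ± 2.91 CPM per kb, n = 3) stood above Chrdl1 (4.83 ± 1.5), and in the IP of cKO mice Chrdl1 (11 ± 2.11) stood above Mertk (7.42 ± 0.950), in both cases without overlap.

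**Figure D1:**
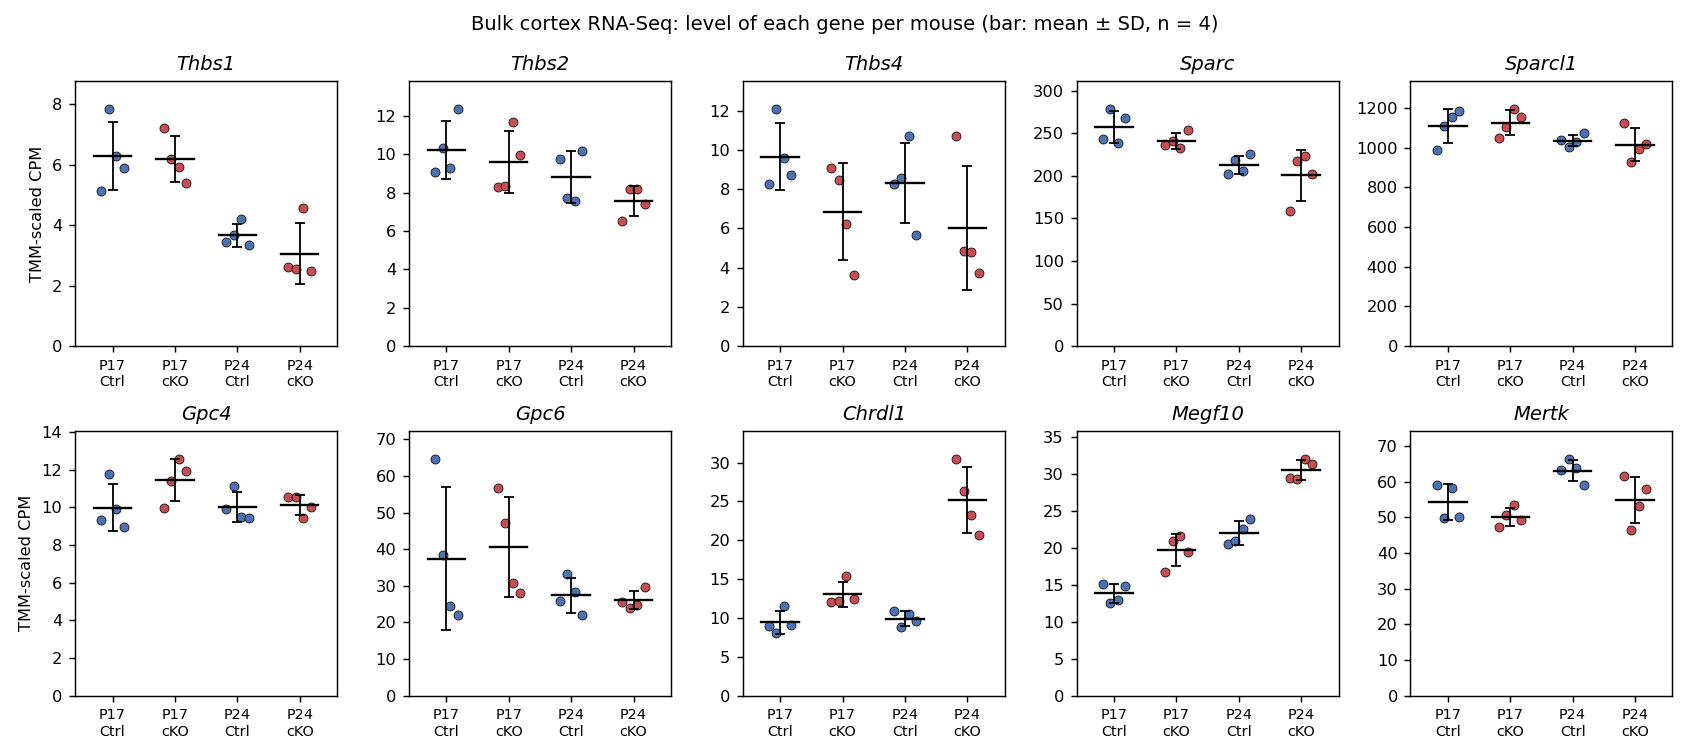
Level of each of the 10 genes in bulk cortex, as TMM-scaled CPM on a linear axis from 0, for the 4 Ctrl (blue) and 4 cKO (red) mice at P17 and at P24. Points are mice, and bars are means ± SD. Chrdl1 in cKO mice lay between 20.7 and 30.4 CPM at P24, above the 8.8 to 10.8 CPM of Ctrl mice, and Megf10 was higher in cKO than in Ctrl mice at both ages without overlap.

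The first comparison asked which of the genes differed between cKO and Ctrl cortex at P24. Chrdl1 and Megf10 were higher in cKO mice, and the other 8 genes did not pass the test. Genes were called at an adjusted p under 0.05 by edgeR's two-sided quasi-likelihood test with Benjamini–Hochberg adjustment over all genes tested. That made 2 of 10 called, both higher, where 1.72% of all 22494 genes tested were called and 1.26% were called higher.

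Chrdl1 (ENSMUSG00000031283; GRCm38 chromosome X, 143285674 to 143394262, minus strand) was at 10.8, 8.8, 10.5 and 9.59 CPM in the 4 Ctrl mice at P24 and at 30.4, 26.3, 23.2 and 20.7 CPM in the 4 cKO mice. The lowest cKO mouse lay well above the highest Ctrl mouse. The level was 2.53-fold higher in cKO mice (log2 fold change 1.34 ± 0.12, standard error; adjusted p = 0.00014), which ranked 61 from the highest of the 22494 genes. As the gene is X-linked, the libraries were also read by Xist. In the libraries with over 1000 Xist counts, Chrdl1 was at 10.5 to 10.8 CPM in Ctrl and 23.2 to 30.4 CPM in cKO mice. In the others, it was at 8.8 to 9.59 CPM in Ctrl and 20.7 to 26.3 CPM in cKO mice. The genotypes lay apart on each side of the Xist division, as they must where every cKO mouse is above every Ctrl mouse. The part of sex in the difference was not tested.

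Megf10 (ENSMUSG00000024593, chromosome 18, plus strand) was at 20.5, 21, 22.6 and 24 CPM in the P24 Ctrl mice and at 29.4, 29.3, 32.0 and 31.3 CPM in the cKO mice. Its spread within each genotype was small beside the gap between them. The log2 fold change was 0.47 ± 0.06 (adjusted p = 0.0023), a 1.39-fold difference. The groups did not overlap for either Chrdl1 or Megf10, which was also so, in the direction of cKO, for 4.27% of all genes tested.

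Mertk, the second phagocytic receptor (ENSMUSG00000014361; chromosome 2, 128698956 to 128802894, plus strand), was at 63.2, 66.3, 63.8 and 59.1 CPM in Ctrl and at 61.7, 46.5, 53.2 and 58.1 CPM in cKO mice at P24. Replicate 1 of the cKO mice lay within the Ctrl range and the other 3 below it. The log2 fold change of −0.20 ± 0.08 did not pass the test (adjusted p = 0.30).

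The most abundant pair overlapped between the genotypes in P24 bulk. Sparcl1 (ENSMUSG00000029309; chromosome 5, 104079111 to 104113733, minus strand) was at 1038, 1004, 1028 and 1072 CPM in Ctrl and at 1125, 926, 994 and 1018 CPM in cKO mice (log2 fold change −0.03 ± 0.05, adjusted p = 0.89). Sparc (ENSMUSG00000018593; chromosome 11, 55394500 to 55423183, minus strand) ranged from 203 to 226 CPM in Ctrl and from 158 to 224 CPM in cKO mice (log2 fold change −0.09 ± 0.09, adjusted p = 0.76). The glypicans had fold changes of like size, well within their spread. Gpc4 (ENSMUSG00000031119; chromosome X, 52053021 to 52165252, minus strand) ranged from 9.45 to 11.2 CPM in Ctrl and from 9.43 to 10.5 CPM in cKO mice (log2 fold change 0.02 ± 0.09). Gpc6 (ENSMUSG00000058571; chromosome 14, 116925315 to 117976544, plus strand) ranged from 22.0 to 33.3 CPM in Ctrl and from 24 to 29.6 CPM in cKO mice (log2 fold change −0.07 ± 0.11).

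The 3 thrombospondins had lower mean levels in cKO cortex, and none passed the test. Thbs4 (ENSMUSG00000021702; chromosome 13, 92751590 to 92794818, minus strand) was at 8.28, 8.58, 10.7 and 5.67 CPM in Ctrl and at 10.7, 4.84, 4.78 and 3.70 CPM in cKO mice (log2 fold change −0.46 ± 0.29, adjusted p = 0.56). A single mouse, cKO replicate 1, carried the overlap, and without it the log2 fold change was −0.90 (adjusted p = 0.020), in a fit that called 4.18% of all genes. Thbs2 (ENSMUSG00000023885; chromosome 17, 14665500 to 14694235, minus strand) ranged from 7.56 to 10.2 CPM in Ctrl and from 6.52 to 8.18 CPM in cKO mice (log2 fold change −0.22 ± 0.13, adjusted p = 0.51). Thbs1 (ENSMUSG00000040152; chromosome 2, 118111876 to 118127133, plus strand) was at 3.44, 3.67, 4.19 and 3.34 CPM in Ctrl and at 2.62, 2.54, 4.58 and 2.49 CPM in cKO mice (log2 fold change −0.25 ± 0.21, adjusted p = 0.66). Replicate 3 of the cKO mice was above all Ctrl mice and the other 3 below them. Exons of Thbs1 overlap those of the antisense gene Gm29233, which had at most 3 counts in any of the 28 libraries.

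In bulk tissue, fewer cells of a type and less RNA per cell cannot be told apart. The astrocyte markers moved with the genotype at P24, in both directions: Gfap, Aqp4 and Aldh1l1 rose (log2 fold changes 2.51, 1.25 and 1.18), and the glutamate transporters Slc1a2 and Slc1a3 fell (−0.41 and −0.40), 5 of 7 called. Their summed level overlapped between the genotypes, at 3682 to 4321 CPM in Ctrl and 4007 to 4162 CPM in cKO mice. None of the 30 markers of the other 7 cell types was called at P24. The part of the astrocyte markers in the Chrdl1 and Megf10 differences was not tested.

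At P17 none of the 10 genes was called in the main fit, which left out replicate numbers, where 0.0943% of the 21201 genes tested were. Chrdl1 was at 8.96, 8.10, 11.6 and 9.05 CPM in Ctrl and at 12, 12.2, 15.5 and 12.4 CPM in cKO mice (log2 fold change 0.47 ± 0.13, adjusted p = 0.58). Megf10 was at 15.1, 12.6, 12.9 and 14.8 CPM in Ctrl and at 16.7, 21, 21.7 and 19.4 CPM in cKO mice (log2 fold change 0.51 ± 0.10, adjusted p = 0.17). For both genes every cKO mouse lay above every Ctrl mouse, as for 1.74% of all genes at this age. Same-numbered P17 libraries deviated together from their group means, and in a fit with the replicate number as a blocking factor Megf10 (adjusted p = 0.019) and Chrdl1 (adjusted p = 0.037) were called higher, where 0.514% of all genes were called. Gpc6 showed the shared deviation most plainly, at 64.6, 38.3, 24.5 and 22.1 CPM in Ctrl replicates 1 to 4 and 56.8, 47.0, 30.7 and 27.9 CPM in cKO replicates 1 to 4.

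The other genes overlapped between the genotypes at P17. Thbs4 again had the lowest log2 fold change (−0.50 ± 0.23), with 8.27 to 12.1 CPM in Ctrl and 3.63 to 9.08 CPM in cKO mice. Gpc4 had a log2 fold change of 0.20 ± 0.12 and Gpc6 of 0.10 ± 0.31. Mertk, Sparc, Thbs2, Thbs1 and Sparcl1 had log2 fold changes between −0.12 and 0.02. Of the astrocyte markers, Gfap alone was called at P17 (log2 fold change 1.03, adjusted p = 8.6e-05).

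Whether the genotype effect itself differed between the ages was tested as an interaction over the 16 bulk libraries. Age is also the count table, so levels at P17 and P24 are given side by side and only the genotype effects are compared. None of the 10 genes was called, where 0.0470% of 23395 genes were. Chrdl1 had the largest interaction of the 10, its genotype effect being larger at P24 by 0.86 ± 0.19 on the log2 scale (adjusted p = 0.17). With the replicate number as a block its adjusted p was 0.014, in a fit that called 0.235% of genes. The Megf10 interaction was −0.04 ± 0.12 (adjusted p = 0.99): the effect of genotype on Megf10 had nearly the same size at both ages. That gene's Ctrl level was 13.9 ± 1.3 CPM at P17 and 22.0 ± 1.58 CPM at P24 (SD, n = 4 each), levels that were not compared.

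**Figure D2:**
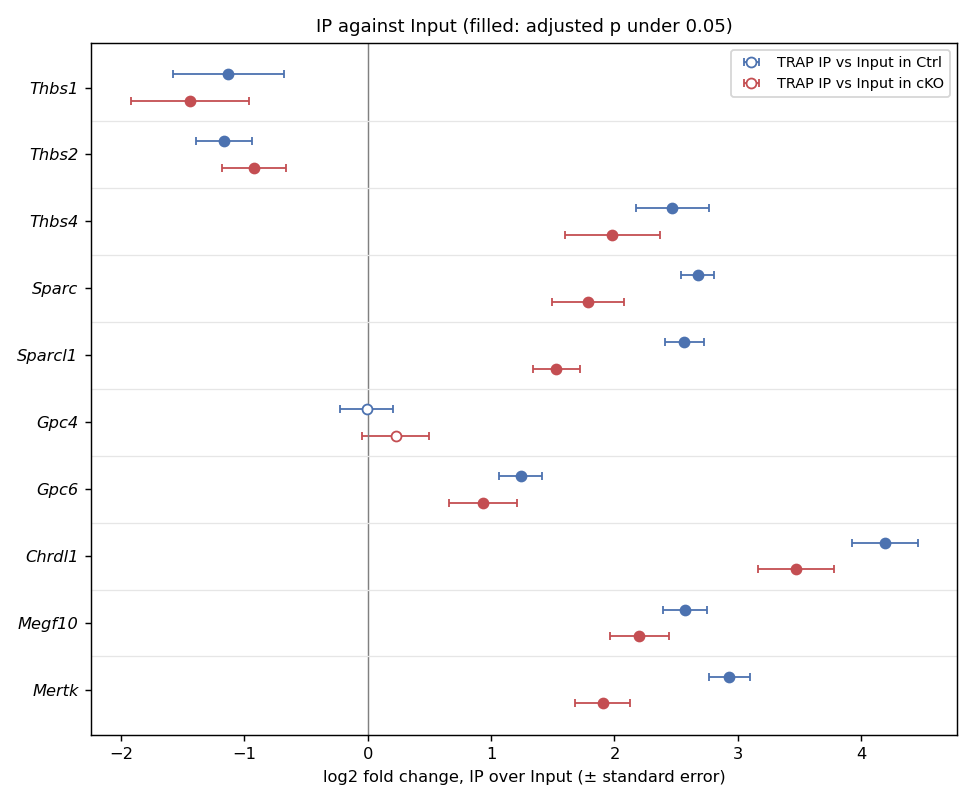
Log2 fold change of IP over Input ± standard error for each gene in Ctrl (blue) and cKO (red) mice, with filled points at an adjusted p under 0.05. The points of 7 genes lie to the right of 0 and those of Thbs1 and Thbs2 to the left in both genotypes, and Gpc4 is near 0.

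In TRAP-Seq, IP was first set against Input to show which of the genes were found in the ribosome-bound RNA of tagged cells. In Ctrl mice 9 of 10 genes differed between the fractions, 7 higher and 2 lower in IP. This fraction effect was very wide, with 71.0% of 24385 genes called, 35.3% higher and 35.7% lower. Chrdl1 had the largest ratio of the 10, with 1.52, 1.56 and 2.26 CPM in Input and 20.9, 38.1 and 38.8 CPM in IP of Ctrl replicates 1, 2 and 3 (18.3-fold, log2 fold change 4.19 ± 0.27, adjusted p = 7.0e-08). Mertk was 7.62-fold, Sparc 6.38-fold, Megf10 5.95-fold, Sparcl1 5.92-fold, Thbs4 5.54-fold and Gpc6 2.36-fold higher in IP, with adjusted p between 1.0e-08 and 4.7e-05.

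The thrombospondins were divided between the fractions. Thbs4 was higher in IP, whereas Thbs2 was at 2.95, 3.28 and 3.49 CPM in Input and at 1.13, 1.40 and 1.83 CPM in IP of Ctrl mice (log2 fold change −1.16 ± 0.23, adjusted p = 0.00066). Thbs1 was lower in IP as well (log2 fold change −1.13 ± 0.45, adjusted p = 0.040), on only 4 to 15 counts per Ctrl IP library. With the mouse as a block its adjusted p was 0.059, and it lost the call when any Ctrl library other than IP replicate 3 was left out (adjusted p between 0.051 and 0.17). Gpc4 did not differ by test (log2 fold change −0.01 ± 0.21), so that the 2 glypicans were unlike each other in this respect. All 7 astrocyte markers were higher in the Ctrl IP. All 6 microglia markers, all 4 endothelial markers and 5 of 6 neuron markers were lower in it, as were 2 of 2 tested markers of oligodendrocyte precursors, 3 of 4 of oligodendrocytes and 3 of 4 of fibroblasts and meninges. Of the 2 pericyte markers tested, 1 was higher and none lower in IP.

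In cKO mice the same 9 genes were called, again 7 higher and 2 lower in IP, where 56.3% of 24011 genes were called, 27.8% higher and 28.5% lower. Chrdl1 was 11.1-fold, Megf10 4.60-fold, Thbs4 3.95-fold, Mertk 3.75-fold, Sparc 3.45-fold, Sparcl1 2.88-fold and Gpc6 1.91-fold higher in IP. Thbs2 (log2 fold change −0.92 ± 0.26, adjusted p = 0.015) and Thbs1 (−1.44 ± 0.48, adjusted p = 0.030) were lower. These weaker calls leaned on single libraries. Thbs1 lost its call without any cKO library other than IP replicate 1 (adjusted p between 0.051 and 0.10). Without IP replicate 3, Thbs2 and Gpc6 also lost theirs (adjusted p = 0.059 and 0.060), and Thbs2 did so without Input replicate 3 (adjusted p = 0.053).

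**Figure D3:**
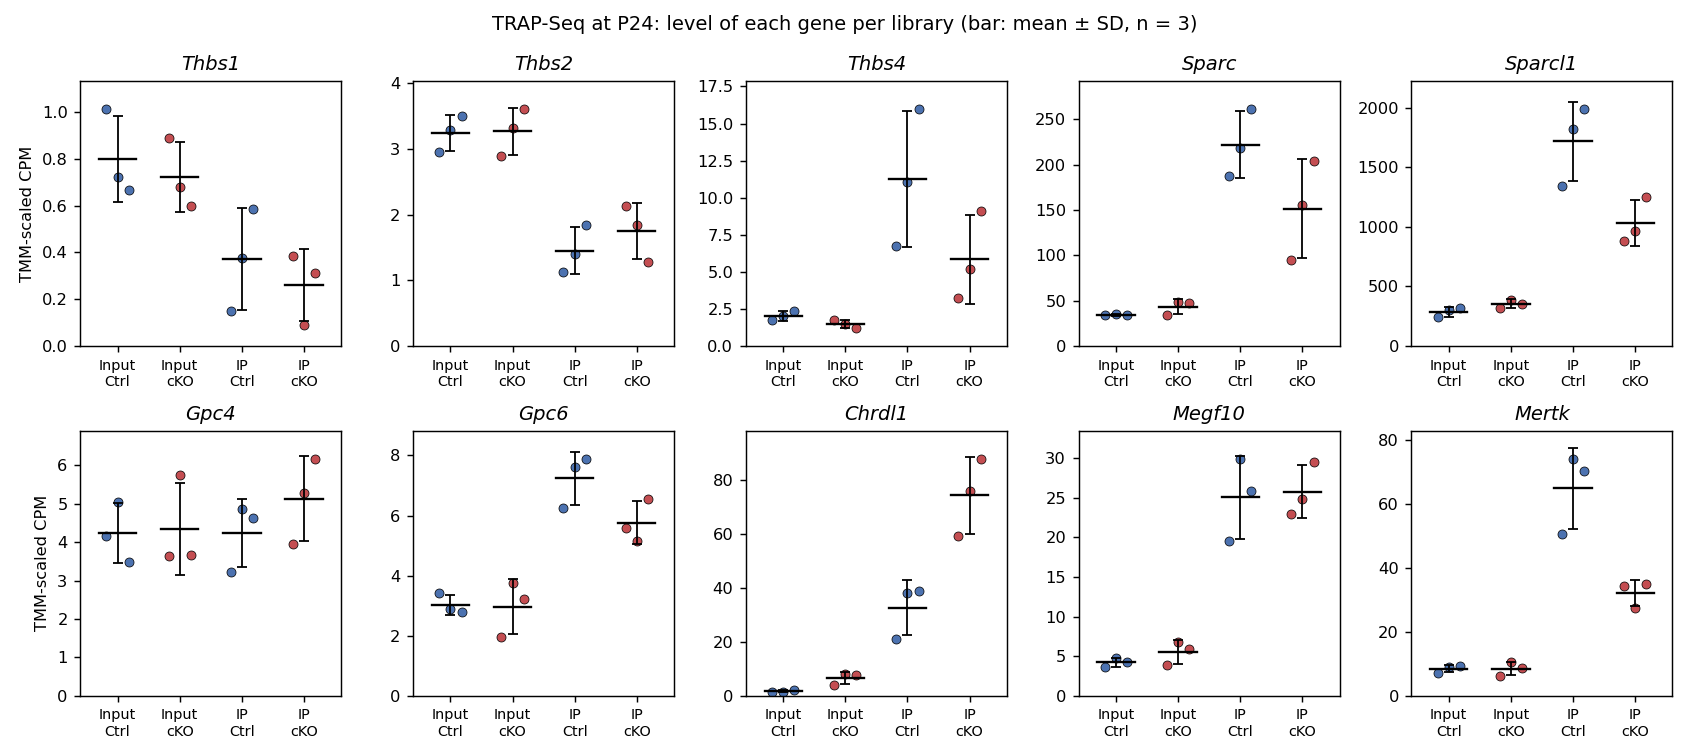
Level of each of the 10 genes in TRAP-Seq at P24, as TMM-scaled CPM on a linear axis from 0, in Input and IP libraries of 3 Ctrl (blue) and 3 cKO (red) mice. Points are libraries, and bars are means ± SD. In IP, Chrdl1 was higher in all cKO libraries (59.4 to 87.8 against 20.9 to 38.8 CPM), and Mertk (27.4 to 34.9 against 50.4 to 73.9 CPM) and Sparcl1 were lower in all of them.

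The comparison of cKO with Ctrl within the IP asked how the genes differed in the tagged cells. Chrdl1 was higher, and Mertk and Sparcl1 were lower, in the IP of cKO mice. Thbs1 fell below the count filter, so 9 genes were tested, of which 3 were called, 1 higher and 2 lower. Among all 23864 genes tested, 20.0% were called, 11.6% higher and 8.42% lower. Scaling by library size alone moved the median log2 fold change of all genes to −0.13 and turned the balance of calls from 2772 higher and 2010 lower to 2002 higher and 3529 lower, while the directions of Chrdl1, Mertk and Sparcl1 stayed as given.

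Mertk was at 50.4, 73.9 and 70.2 CPM in the IP of Ctrl mice and at 34.2, 27.4 and 34.9 CPM in the IP of cKO mice. All 3 cKO libraries lay below all 3 Ctrl libraries. The level was 2.00-fold lower in cKO mice (log2 fold change −1.0 ± 0.15, adjusted p = 0.0015). Sparcl1 was at 1342, 1823 and 1984 CPM in Ctrl IP and at 879, 961 and 1247 CPM in cKO IP. The groups did not overlap, although Ctrl replicate 1 was close to cKO replicate 3. The log2 fold change was −0.73 ± 0.17 (adjusted p = 0.011), and without cKO replicate 2 the adjusted p was 0.053.

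Chrdl1 was at 20.9, 38.1 and 38.8 CPM in Ctrl IP and at 59.4, 75.8 and 87.8 CPM in cKO IP, a log2 fold change of 1.20 ± 0.22 (2.29-fold, adjusted p = 0.0036). The lowest cKO library was above the highest Ctrl library. Non-overlapping groups were common in this comparison, with 19.0% of genes apart and higher in cKO and 18.7% apart and lower.

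Megf10, called higher in P24 bulk cortex, overlapped between the genotypes in IP. It was at 19.5, 29.9 and 25.8 CPM in Ctrl and at 23.0, 24.8 and 29.5 CPM in cKO mice (log2 fold change 0.05 ± 0.16, adjusted p = 0.87) that was −0.06 with library size alone. Bulk and IP were separate sets of mice and no test was made of the difference between them.

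Thbs4 and Sparc had lower means in the cKO IP with wide spreads. Thbs4 was at 6.77, 11.1 and 16 CPM in Ctrl and at 3.24, 5.19 and 9.11 CPM in cKO IP (log2 fold change −0.93 ± 0.35, adjusted p = 0.088). Sparc was at 187, 218 and 261 CPM in Ctrl and at 95.1, 155 and 204 CPM in cKO IP (log2 fold change −0.54 ± 0.23, adjusted p = 0.12). In both genes the highest cKO library reached into the Ctrl range, while each cKO library lay below the Ctrl library of the same number. The share of all genes with that order by number was not counted. With the replicate number as a block, Thbs4 (adjusted p = 0.00052) and Sparc (adjusted p = 0.0033) were called lower. That fit called 3575 of 23864 genes higher and 3160 lower. Whether same-numbered mice are pairs is not known here. Without cKO replicate 3, Thbs4 (adjusted p = 0.018) and Sparc (adjusted p = 0.019) passed the threshold, where 19.6% of all genes did, and Thbs4 did so without Ctrl replicate 1 (adjusted p = 0.034), where 12.5% did.

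The glypicans and the remaining thrombospondins were not called in IP. Gpc6 was at 6.24, 7.62 and 7.88 CPM in Ctrl and at 5.58, 5.14 and 6.55 CPM in cKO IP (log2 fold change −0.32 ± 0.16, adjusted p = 0.19). Gpc4 ranged from 3.23 to 4.87 CPM in Ctrl and from 3.96 to 6.16 CPM in cKO IP (log2 fold change 0.28 ± 0.21). Thbs2 ranged from 1.13 to 1.83 CPM and from 1.28 to 2.13 CPM (log2 fold change 0.27 ± 0.27). Thbs1 had 4, 10 and 15 counts in Ctrl and 9, 2 and 8 counts in cKO IP and was not tested.

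In the IP, the summed astrocyte markers overlapped between the genotypes, at 9800 to 12348 CPM in Ctrl and 10077 to 12903 CPM in cKO mice. Of these 7 markers Gfap rose (log2 fold change 0.76), Slc1a2 (−0.71) and Slc1a3 (−0.95) fell, and 4 were not called. The summed neuron markers were at 2073 to 2529 CPM in Ctrl and 2127 to 2183 CPM in cKO IP, and those of microglia and macrophages at 87.3 to 98.8 and 80.4 to 90.0 CPM. Single markers of other cell types called in IP were Tubb3 (−0.58), Rgs5 (0.88) and Col1a1 (−1.25). The part of any of these markers in the differences was not tested. Ctrl replicate 1 was the lowest of the Ctrl IP libraries in each of the 10 genes. It was also lowest in the summed markers of astrocytes, neurons, pericytes, oligodendrocytes and oligodendrocyte precursors. In those of microglia, endothelial cells and fibroblasts it was not. In how many of all genes that library was the lowest was not counted.

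In the Input libraries of the same mice none of the 10 genes was called, where 0.109% of 23828 genes were. Chrdl1 was at 1.52, 1.56 and 2.26 CPM in Ctrl and at 3.87, 8.21 and 7.72 CPM in cKO Input, a log2 fold change of 1.90 ± 0.33 (3.72-fold, adjusted p = 0.14). All cKO libraries were higher, as for 6.59% of all genes. Replicate 1 was well below the other cKO libraries, and without it the log2 fold change was 2.17 (adjusted p = 0.0030), in a fit that called 0.458% of all genes. The summed astrocyte markers were also apart in Input, at 930.1 to 1071 CPM in Ctrl and 1407 to 1931 CPM in cKO mice, with replicate 1 again the lowest cKO library, and 1 of 7, Aldoc, was called (log2 fold change 0.92). Their part in the Chrdl1 difference was not tested. Mertk overlapped between the genotypes, with 7.21, 8.84 and 9.39 CPM in Ctrl and 6.27, 10.5 and 8.57 CPM in cKO Input (log2 fold change 0.00 ± 0.22). Sparcl1 (0.30 ± 0.16), Sparc (0.33 ± 0.17), Megf10 (0.40 ± 0.25) and Thbs4 (−0.46 ± 0.26) overlapped between the genotypes in Input.

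Mertk, Sparcl1 and Sparc thus had log2 fold changes of −1.0, −0.73 and −0.54 in IP and of 0.00, 0.30 and 0.33 in Input, and this difference was tested as an interaction of fraction and genotype over the 12 TRAP-Seq libraries. IP and Input of each mouse entered this fit as separate libraries, without the mouse as a block. None of the 10 genes was called, where 0.0582% of 25768 genes were. The interaction was −1.03 ± 0.25 for Sparcl1 (adjusted p = 0.16), −1.01 ± 0.28 for Mertk (adjusted p = 0.23), −0.88 ± 0.32 for Sparc (adjusted p = 0.43) and −0.71 ± 0.43 for Chrdl1 (adjusted p = 0.70). Without Input replicate 1 of the cKO mice, Sparcl1 (adjusted p = 0.033) and Mertk (adjusted p = 0.028) passed the threshold, in a fit that called 1.63% of all genes. The 7 astrocyte markers had interactions in the same direction, from −1.01 for Slc1a3 to −0.61 for Slc1a2, none of them called. Their median was −0.80, beside −0.03 for all genes, and the part of this shift in the values of Sparcl1, Mertk and Sparc was not tested.

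The ratio of IP to Input in each mouse shows the same values. For Sparcl1 it was 5.58, 6.02 and 6.18 in Ctrl mice and 2.79, 2.46 and 3.52 in cKO mice. For Mertk it was 6.99, 8.36 and 7.47 in Ctrl and 5.46, 2.60 and 4.07 in cKO mice. For Sparc it was 5.46, 6.12 and 7.72 in Ctrl and 2.81, 3.20 and 4.26 in cKO mice. The genotypes did not overlap for these 3 genes, as for 9.31% of all genes in the same direction. The other 7 overlapped, Chrdl1 among them, at 13.8, 24.5 and 17.2 in Ctrl and 15.4, 9.24 and 11.4 in cKO mice.

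**Figure D4:**
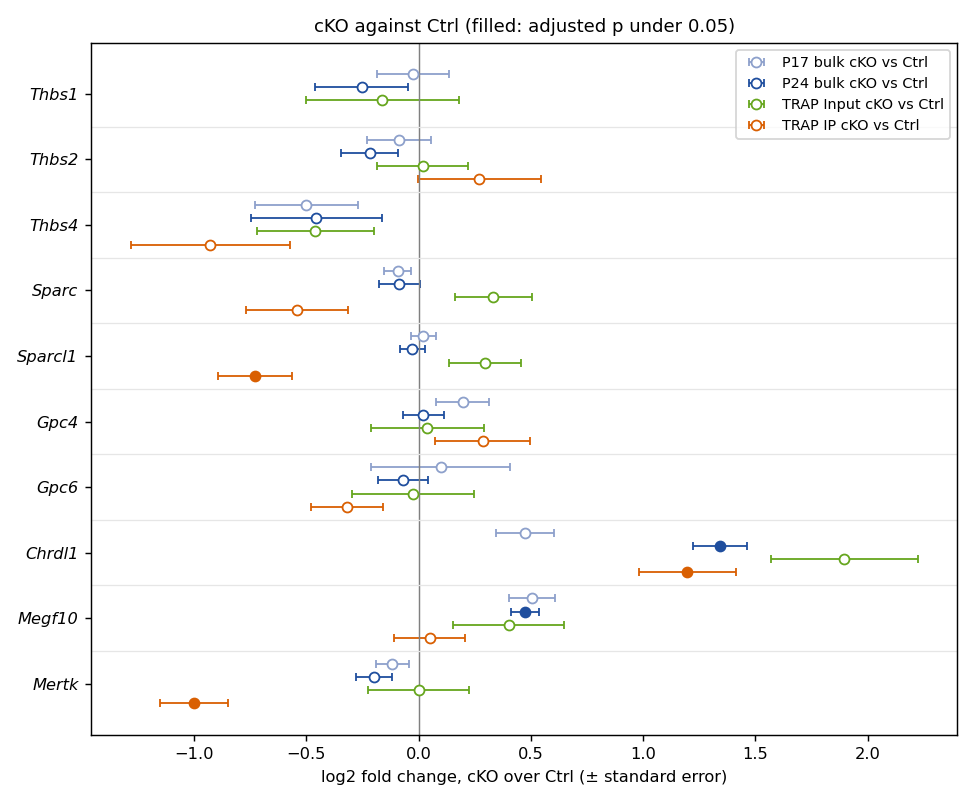
Log2 fold change of cKO over Ctrl ± standard error for each of the 10 genes in P17 bulk, P24 bulk, TRAP Input and TRAP IP libraries, with filled points at an adjusted p under 0.05 and no IP point for Thbs1, which was not tested there. Chrdl1 is to the right of 0 in all 4, from 0.47 to 1.90, Thbs4 is to the left in all 4, from −0.93 to −0.46, and Mertk and Sparcl1 are lower in IP alone among the filled points.

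Set side by side over the 4 comparisons of genotype, Chrdl1 had log2 fold changes of 0.47, 1.34, 1.90 and 1.20 in P17 bulk, P24 bulk, Input and IP, with no overlap between the genotypes in any of them. Megf10 had 0.51, 0.47, 0.40 and 0.05. Mertk had −0.12, −0.20, 0.00 and −1.0, and Sparcl1 had 0.02, −0.03, 0.30 and −0.73. Thbs4 had −0.50, −0.46, −0.46 and −0.93 and passed the test in none. The Input and IP values come from the same mice and are not independent of each other. Ctrl mice are given as without the mGFAP-Cre driver, which the IP of Ctrl mice requires. The Ctrl mice of bulk and TRAP-Seq may thus differ in the driver, and its part in these values was not tested.

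**Figure D5:**
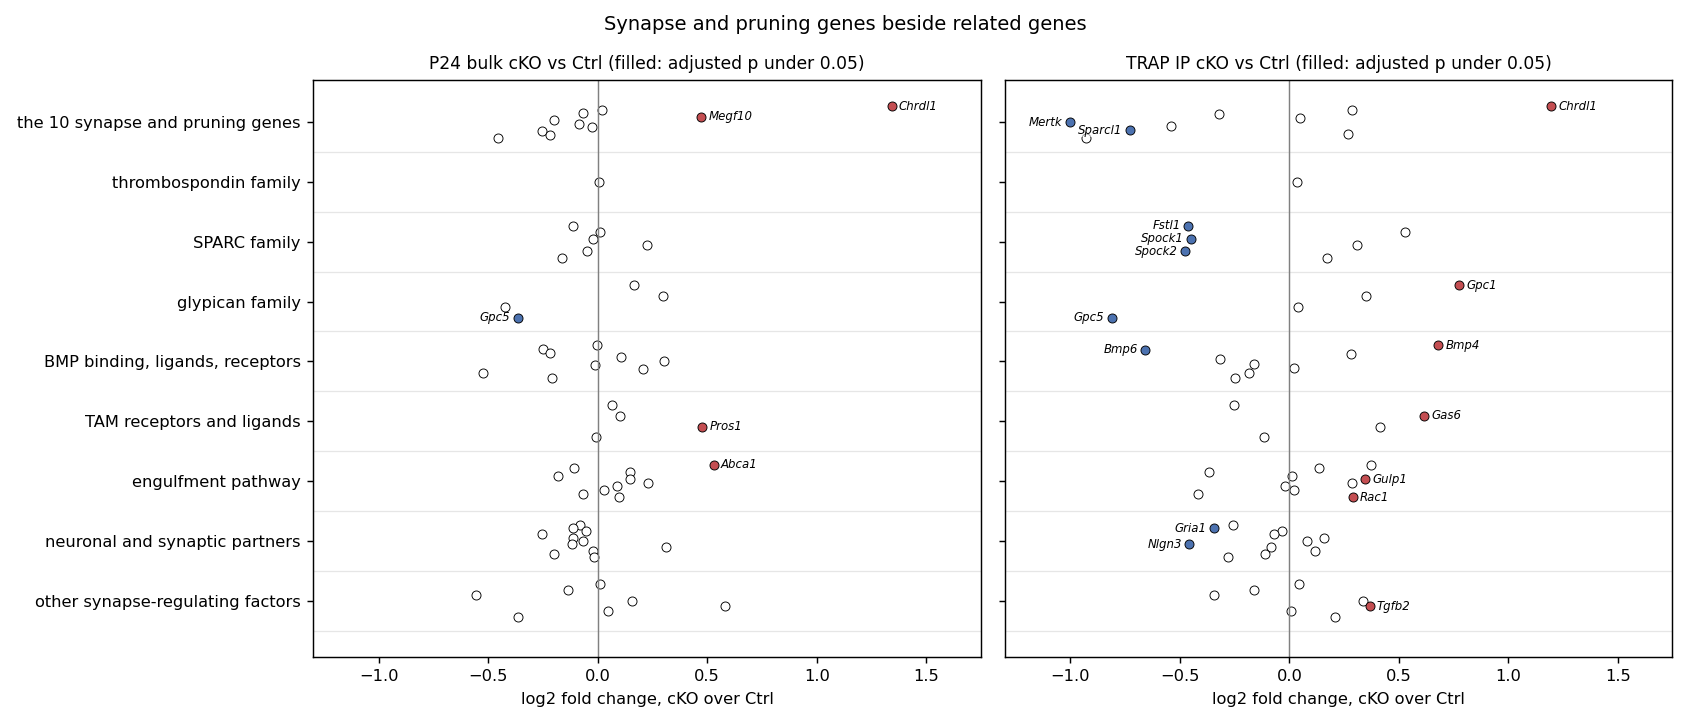
Log2 fold change of cKO over Ctrl in P24 bulk (left) and TRAP IP (right) for the 10 genes and for 8 lists of related genes, each point a gene that passed the count filter. Filled points, red for higher and blue for lower, have an adjusted p under 0.05 and are named. In P24 bulk, Chrdl1 at 1.34 lies to the right of all related genes shown.

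The relatives and partners of the 10 genes were read from 8 lists, against 1.72% of all genes called in P24 bulk and 20.0% in IP (11.6% higher and 8.42% lower). Of the other thrombospondins, Thbs3 had log2 fold changes of 0.00 ± 0.13 in P24 bulk and 0.03 ± 0.11 in IP and was 3.08-fold higher in IP than in Input of Ctrl mice, like Thbs4. Comp was too low to be tested in either. In the SPARC family, 0 of 6 genes were called in P24 bulk, and 3 of 6 fell in IP, where 8.42% of all genes fell: the testicans Spock2 (−0.48) and Spock1 (−0.45) and the follistatin-like Fstl1 (−0.46). Spock1 and Spock2 were much lower in IP than in Input of either genotype, at 15.2 to 23.6 and 57.9 to 98.2 CPM in IP.

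Among the other glypicans, Gpc5, which like Gpc6 and Gpc4 is a cell-surface heparan sulfate proteoglycan, fell in P24 bulk (34.5 to 41.5 CPM in Ctrl and 25.4 to 31.3 CPM in cKO mice, log2 fold change −0.37 ± 0.08, adjusted p = 0.035) and in IP (52.9 to 79.5 and 31.8 to 48.2 CPM, −0.81 ± 0.18, adjusted p = 0.0091). Gpc1 rose in IP (0.77 ± 0.18, adjusted p = 0.012), and the other 2 glypicans were not called in either comparison. Of the 10 BMP antagonists, ligands and receptors that stand beside Chrdl1, 0 of the 9 tested were called in P24 bulk. In IP 2 of the 8 tested were called, near the share of all genes (20.0%), the ligand Bmp4 higher (0.68 ± 0.22, adjusted p = 0.049) and the ligand Bmp6 lower (−0.66 ± 0.20, adjusted p = 0.041), both at under 6 CPM.

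Each of the 2 ligands of Mertk rose in 1 of the 2 comparisons and was not called in the other. Of the 4 genes listed as ligands and sister receptors of Mertk, 1 was called in P24 bulk. In IP 1 of the 4 was called, near the share of all genes called there (20.0%). Pros1 (protein S) rose in P24 bulk, from 5.89 to 7.25 CPM in Ctrl to 8.27 to 9.91 CPM in cKO mice (log2 fold change 0.48 ± 0.10, adjusted p = 0.042). Gas6 rose in IP, from 35.8 to 49.2 CPM in Ctrl to 50.7 to 76.1 CPM in cKO mice (0.62 ± 0.16, adjusted p = 0.019). The sister receptors Axl and Tyro3 were not called, with log2 fold changes in IP of −0.25 and −0.12. In the engulfment pathway 1 of 10 genes was called in P24 bulk, the lipid transporter Abca1 (0.53 ± 0.11, adjusted p = 0.033), and 2 of 10 in IP, both higher: the adaptor Gulp1 (0.35) and the GTPase Rac1 (0.29). That was again near the share of all genes called in IP (20.0%).

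Of 11 neuronal and synaptic partners, 0 were called in P24 bulk and 2 fell in IP, the adhesion protein Nlgn3 (−0.46) and the AMPA receptor subunit Gria1 (−0.34), a share near that of all genes called in IP (20.0%). In each genotype 9 of the 11 were lower and 1 higher in IP than in Input. Of all genes, 35.7% were lower in IP in Ctrl and 28.5% in cKO mice. Which cells the 2 falls come from was not tested. Of the 7 other synapse-regulating factors tested, 0 were called in P24 bulk and Tgfb2 rose in IP (0.37). The median log2 fold change of the 9 tested members in IP was −0.32, beside −0.01 for all genes, and that of the 10 members in P24 bulk was −0.08, beside 0.00. At P17 and in Input no gene of the 8 lists was called.

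Finally, the genes whose pattern over the 28 libraries was most like each of the 10 were listed, by Pearson's r of log2 CPM centred within each of the 3 tables, among 16456 genes. The contrast of IP and Input dominates such an r, so it is a description only. Mertk ran closest with the glutamate transporter Slc1a3 (r = 0.986), Paqr8 and the glycine decarboxylase Gldc. Chrdl1 ran closest with Abhd4 (r = 0.983), Tmem176a and the endothelin receptor Ednrb, and Megf10 with Tril (r = 0.983), Appl2 and the fatty acid transporter Slc27a1. Sparcl1 (Acsl6, Slc39a12 and Fgfr3, r from 0.986 to 0.989) and Sparc (Ttyh1, Fjx1 and Fgfr3, r from 0.981 to 0.983) shared Fgfr3. Thbs4 was nearest to the amino acid transporter Slc7a10 (r = 0.908) and Gpc6 to Frmd4a (r = 0.916). Gpc4 had no close companion, with r of at most 0.755, to Tmem43. Among the 10 genes themselves, the highest r joined Sparcl1 and Mertk (0.978), and Thbs2 had a negative r with each of the others except Thbs1 (0.650).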

How the data were processed

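RNA-Seq was read from 16 bulk cortex and 12 TRAP-Seq libraries, each from a single mouse. The authors primed reverse transcription of bulk RNA with oligo-dT, and for TRAP-Seq purified RNA on oligo-dT beads and made libraries with a NEBNext Ultra kit. They sequenced on an Illumina HiSeq, mapped reads to mm10 with STAR in Galaxy, and deposited raw counts per Ensembl gene, without normalization, in a table per experiment. The counting tool, its strand setting and the annotation are not given in the sources used here, so reads of overlapping antisense genes cannot be told apart. The age of a bulk table is known from its name alone. Symbols, positions and exonic lengths came from GENCODE M21 (GRCm38, the same build as mm10), which held 53237 of the 53342 identifiers.

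Counts were analysed in R 4.3.3 with edgeR 4.0.16: TMM scaling, filterByExpr (minimum count 10, total 15, 70% of libraries) and the quasi-likelihood F-test (two-sided, replicate numbers not in the model), with Benjamini–Hochberg adjustment over all genes and a threshold of 0.05. The standard error is the log2 fold change divided by the square root of F. A single incomplete identifier at P24 was left out. p-values of the genotype and age comparisons measure the spread between these mice. For IP against Input and for fraction by genotype, both libraries of a mouse entered unpaired, so p-values there measure the spread between libraries. Of same-numbered cKO and Ctrl libraries, only those at P17 were read as pairs, and only in the alternative fit with the replicate block. Their deviations from the group means correlated at 0.179 to 0.420, and all 4 pairs were best with their own number. The main P17 fit did not use this pairing. IP and Input of a number come from the same mouse, per the labels. Pairs of replicates differed by more than counting error (chi-square per degree of freedom 2.59 to 78.6 over 36 pairs). Alternatives were the likelihood ratio and exact tests, DESeq2 1.42.0, RLE factors, library size alone, other filters, the replicate block, joint fits, and leaving out each library. The fitting steps were tested on simulated data.

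The 10 members are all named. From the 8 related lists, up to 4 genes per list and comparison were named, those with the largest change among genes with an adjusted p under 0.05, and lists of 3 genes or fewer could be named in full. The 10 members, the lists and the markers were chosen with earlier results of these data known. Some genes, among them the deleted one, are not reported here.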

Additional observations from a re-analysis of the deposited data

Results flagged for a closer look

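In 3 groups of 4 mice, a single library stood apart from the other 3 by Dixon's criterion, among 40 groups of 4 tested over the 10 genes, where chance sets apart about 1 in 20. Thbs1 in P24 cKO replicate 3 was at 4.58 CPM, and the other cKO mice were at 2.49 to 2.62 CPM. Thbs4 in P24 cKO replicate 1 was at 10.7 CPM, and the others were at 3.70 to 4.84 CPM. Chrdl1 in P17 cKO replicate 3 was at 15.5 CPM, and the others were at 12 to 12.4 CPM.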

How the results depend on the processing

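The results rest on 3 or 4 mice per group, and the P24 calls of Chrdl1 and Megf10 and the IP calls of Chrdl1 and Mertk were kept under every alternative run. Of the values for the 10 genes under all alternatives, 1228 kept their direction and side of the threshold, 34 gained a call, 17 lost one and 62 changed sign, and apart from the settings given here or in the report the cause was not tested. At P17 the members called went from 0 to 1 with the likelihood ratio test, the exact test, no filter on low counts, and all bulk libraries in one fit. Over all genes, 14 were called higher and 6 lower at P17 in the main fit. These alternatives called 50, 46, 39 and 11 higher and 11, 11, 16 and 7 lower, in that order. In Input the members called went from 0 to 1 with the likelihood ratio test, the exact test, DESeq2, no filter and one joint fit. Over all genes, the main fit called 22 higher and 4 lower in Input. These alternatives called 129, 128, 120, 94 and 121 higher and 8, 8, 7, 18 and 6 lower, in that order. In IP the members called went from 3 to 4 with the likelihood ratio and exact tests, and to 5 with library size alone and without the filter. Over all genes, the main fit called 2772 higher and 2010 lower in IP. These alternatives called 3070, 3039, 2002 and 2990 higher and 2416, 2377, 3529 and 2374 lower, in that order. For the interaction of fraction and genotype the members called went from 0 to 1 with the likelihood ratio test and DESeq2 and to 2 without the filter. Over all genes, the main fit of that interaction called 10 higher and 5 lower. These alternatives called 93, 99 and 79 higher and 126, 185 and 110 lower, in that order. For the interaction of age and genotype the members called went from 0 to 1 with the likelihood ratio test, DESeq2 and no filter. Over all genes, the main fit of that interaction called 8 higher and 3 lower. These alternatives called 42, 43 and 52 higher and 10, 11 and 10 lower, in that order. When each library was left out in turn, the number of members called ranged from 2 to 3 at P24, 0 to 0 at P17, 2 to 5 in IP, 0 to 1 in Input, 8 to 9 and 6 to 9 for IP over Input in Ctrl and cKO, 0 to 2 for fraction by genotype and 0 to 0 for age by genotype. Over all genes, calls ranged at P24 from 170 to 650 higher and 45 to 302 lower. In the same order, they were 6 to 11 and 5 to 8 at P17. In IP they were 1827 to 2849 and 806 to 2100, and in Input 1 to 103 and 2 to 11. IP over Input gave 8071 to 8754 and 7771 to 8619 in Ctrl, and 5460 to 8520 and 5513 to 8298 in cKO. Fraction by genotype gave 1 to 246 and 1 to 186, and age by genotype 2 to 113 and 2 to 36. The exact test cannot be made for an interaction, and Thbs1 was not tested in IP.

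Adding the replicate number as a block gave 2 called members at P17, where 0.514% of all genes were called. It gave 1 for age by genotype, where 0.235% of all genes were. In IP it gave 5, where 3575 of 23864 genes were called higher and 3160 lower. The mouse as a block took Thbs1 out of the calls of IP over Input in Ctrl mice. DESeq2 (adjusted p = 0.098) and one joint fit (adjusted p = 0.060) did so too. Among the sign changes, with the block Mertk in Input went to −0.023, and for age by genotype Thbs4 to −0.00067 and Sparc to −0.0070. At P24 and in IP and Input, same-numbered mice of the 2 genotypes were not taken as pairs. Their deviations from the group means correlated at 0.037 to 0.247, 0.0790 to 0.204 and −0.0619 to 0.137. Of these, 2 of 4, 3 of 3 and 2 of 3 pairs were best with their own number. At P24 the libraries with over 1000 Xist counts were replicates 1 and 3 in both genotypes. Whether same-numbered mice were littermate pairs is not given in the sources used here.

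With library size alone the log2 fold change was −0.063 for Megf10 in IP and, in Input, −0.019 for Mertk and −0.0100 for Thbs2. Mertk in Input was −0.0056 with DESeq2 and −0.0060 with RLE factors. Gpc4 in IP over Input of Ctrl mice was 0.0063 with DESeq2, 0.0070 with RLE factors, 0.077 with library size alone, 0.063 without the filter, 0.050 with at least 10 counts in every library and 0.0036 in one joint fit. With each library left out in turn, log2 fold changes at P24 ranged from −0.16 to 0.039 for Gpc6, −0.0073 to 0.077 for Gpc4, −0.14 to 0.011 for Sparc and −0.081 to 0.014 for Sparcl1. At P17 they ranged from −0.032 to 0.056 for Sparcl1, −0.12 to 0.10 for Thbs1, −0.10 to 0.50 for Gpc6 and −0.19 to 0.0066 for Thbs2. In IP Megf10 ranged from −0.11 to 0.20. In Input the ranges were −0.34 to 0.065 for Thbs1, −0.064 to 0.10 for Thbs2, −0.22 to 0.19 for Gpc6, −0.18 to 0.18 for Mertk and −0.21 to 0.18 for Gpc4. Gpc4 in IP over Input of Ctrl mice ranged from −0.15 to 0.21, and the fraction by genotype interaction of Thbs1 from −0.69 to 0.14. The age by genotype interaction ranged from −0.051 to 0.10 for Sparc, −0.40 to 0.22 for Thbs4, −0.11 to 0.019 for Megf10, −0.10 to 0.0050 for Sparcl1 and −0.57 to 0.031 for Gpc6.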
